A study of Homo sapiens with 12 samples.

Results

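The 38 genes described here encode secreted ligands of the transforming growth factor beta (TGF-beta) family and proteins that hold these ligands back. They were chosen by name and not by a cut on a measured value, but with earlier results of these data known. They are 38 of the 19962 protein-coding genes of the annotation on chromosomes 1 to 22 and X. There were 9 bone morphogenetic proteins (BMP), 11 growth and differentiation factors (GDF, with myostatin), 5 inhibin and activin subunits, 3 TGF-beta isoforms, 4 genes of the nodal type or encoding anti-Müllerian hormone, and 6 antagonists. The mark measured was trimethylation of lysine 27 of histone H3 (H3K27me3), by chromatin immunoprecipitation (ChIP) and sequencing of human SH-SY5Y neuroblastoma cells. The 6 ChIP samples comprised 2 biological replicates each of Tau expressing parental cells (WT) and of 2 cell lines without Tau, 231K and 232P, in which the Tau gene MAPT is knocked out (Tau-KO). The single marks in both lists labelled 232P, all 147118 and 199677 of them, carry names that begin with 231P, which the study uses for another Tau-KO line. The sample labels were followed, and from the lists it cannot be told which of these lines the values given for 232P belong to. All groups share the parental cell line and the culture medium, the labels give no treatment, and each Tau-KO genotype is 1 cell line, so that genotype and line cannot be told apart. MAPT (chr17:45894527-46028334 in GRCh38) had no mark in any of the 6 samples, WT included, so its marks do not check the labels.

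TGF-beta family ligands bind pairs of serine/threonine kinase receptors, which phosphorylate SMAD proteins that then enter the nucleus and regulate transcription. Antagonists such as noggin, chordin, gremlin and follistatin bind ligands outside the cell and keep them from their receptors. H3K27me3 is placed by the Polycomb Repressive Complex 2 (PRC2) and is known to lie over silenced developmental genes, often with start sites rich in CG dinucleotides. SH-SY5Y cells derive from the sympathetic lineage, in which BMP signals are known to promote differentiation. The question was where the marks lay at these genes and whether they differed between WT and Tau-KO cells.

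Each sample had 1 list of marks, that is, of regions in which the reads exceeded the local background. The lists of WT replicates 1 and 2 held 285826 and 222191 marks, those of 231K held 271413 and 212347, and those of 232P held 147118 and 199677. The median mark was 441 and 682 bp wide in WT, 440 and 688 bp in 231K, and 335 and 666 bp in 232P. The relative depth, with WT replicate 1 as 100%, was 66.6% in WT replicate 2, 94.8% and 68.7% in 231K, and 68.1% and 56.9% in 232P. The list of 232P replicate 1 therefore stood apart, with the fewest and the narrowest marks, and the differences it moved most are also given without it. A gene was said to have a mark at its start when a mark reached within 1 kb of any annotated start site. The fold enrichment over the local background given for a start is that at the summit of such a mark. The summit may lie outside that 1 kb. Of 10 adrenergic genes active in SH-SY5Y cells, 9 had no such mark in any sample, and of 8 PRC2 targets of other lineages 6 had one in all 6 samples. Of 8 housekeeping genes 6 had none in any sample, HPRT1 had one in all 6 samples and PGK1 in 5, and both of these lie on chromosome X.

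Most of the 38 genes carried no H3K27me3 at their start. In 23 of them no sample had a mark within 1 kb of a start site, whereas 78.0% of all protein-coding genes had none. Those 23 were the ligand genes BMP2, BMP8A, BMP8B, BMP10, GDF1, GDF2, GDF5, GDF7, GDF9, GDF11, GDF15, MSTN, INHA, INHBA, INHBB, INHBC, INHBE, TGFB2, TGFB3, LEFTY1, LEFTY2 and AMH, and BAMBI, which encodes a decoy receptor. All 5 inhibin and activin genes were therefore free of the mark at the start. Reads of the near-identical pairs BMP8A and BMP8B, and LEFTY1 and LEFTY2, may not be told apart, and the starts of GDF1, GDF9, INHA, INHBC, INHBE and TGFB3 have another gene's start within 5 kb.

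A mark at the start was found in both WT samples for 8 of the 38 genes, beside 16.5% of all protein-coding genes. In 231K there were 7 such genes, beside 15.7%, and in 232P there were 6, beside 12.2%. Single samples had 9 and 12 marked genes in WT, 7 and 9 in 231K, and 11 and 7 in 232P, so that the genotypes overlapped. Of all protein-coding genes 18.3 and 18.5% were marked in WT, 16.8 and 18.3% in 231K, and 14.5 and 15.8% in 232P. There both 232P samples were below all others. The 6 genes marked in all 6 samples, beside 11.4% of all genes, were the ligand genes BMP3, BMP4, BMP6 and GDF3 and the antagonist genes FST and CHRDL2. By class, both WT samples had the mark in 4 of 9 BMP genes, 1 of 11 GDF genes, 2 of 6 antagonist genes and 1 of 4 genes of the nodal group. The corresponding numbers were 3, 1, 3 and 0 in 231K and 3, 1, 2 and 0 in 232P. Both lines thus had fewer genes of the BMP class and nodal group than WT, and 231K had 1 more antagonist gene. These differences by class were not tested.

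**Figure D1:**
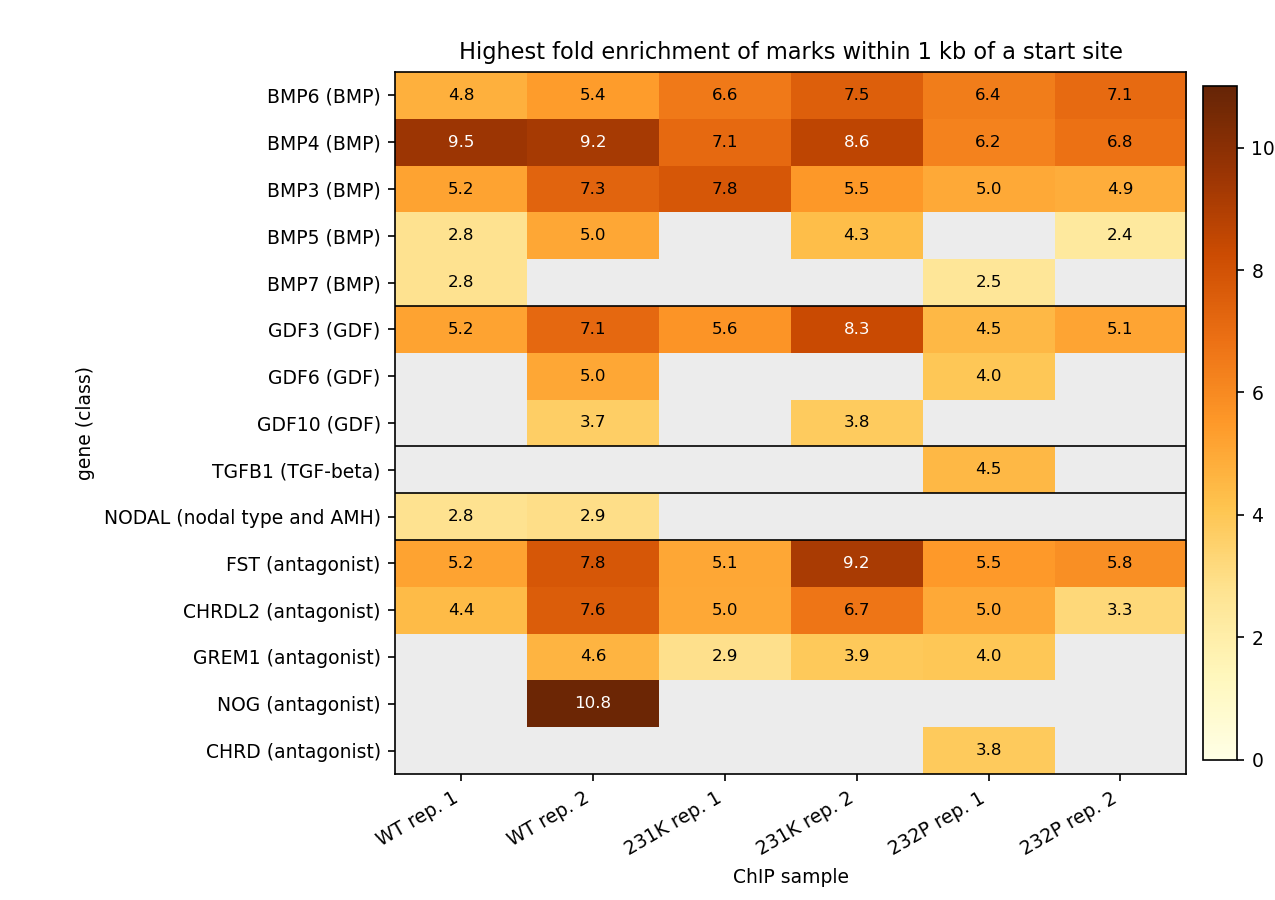
Highest fold enrichment over the local background (colour and number) of the marks within 1 kb of a start site, for the 15 of 38 genes with such a mark in at least 1 sample (rows, grouped by class) in the 6 ChIP samples (columns). Grey fields are samples without a mark. The rows of BMP3, BMP4, BMP6, GDF3, FST and CHRDL2 are filled in all 6 samples, and NODAL is filled in the WT samples only.

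The start regions of 4 of these genes show how the marks lay. They are given as in RefSeq (GRCh38.p14), from 250 bases before to 50 bases after the start, 5′ to 3′ on the strand of the gene, with every CG dinucleotide in capitals. GDF3 (chr12:7695726-7696025, minus strand), a ligand of the nodal pathway, is shown because marks ran across its start. BMP6 (chr6:7725849-7726148, plus strand) and FST (chr5:53480379-53480678, plus strand) are shown because marks lay on both sides of a start that was largely bare. The exception was FST in 232P replicate 1, where the nearest upstream mark lay 6614 bp before the start. BMP4 (chr14:53955001-53955300, minus strand) is shown as another CG-rich start, with little or no cover.
GDF3: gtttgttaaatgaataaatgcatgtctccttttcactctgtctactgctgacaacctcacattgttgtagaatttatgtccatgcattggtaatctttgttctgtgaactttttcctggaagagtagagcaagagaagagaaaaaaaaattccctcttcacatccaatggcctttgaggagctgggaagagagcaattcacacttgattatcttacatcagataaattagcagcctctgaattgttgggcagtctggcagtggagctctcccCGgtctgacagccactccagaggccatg
BMP4: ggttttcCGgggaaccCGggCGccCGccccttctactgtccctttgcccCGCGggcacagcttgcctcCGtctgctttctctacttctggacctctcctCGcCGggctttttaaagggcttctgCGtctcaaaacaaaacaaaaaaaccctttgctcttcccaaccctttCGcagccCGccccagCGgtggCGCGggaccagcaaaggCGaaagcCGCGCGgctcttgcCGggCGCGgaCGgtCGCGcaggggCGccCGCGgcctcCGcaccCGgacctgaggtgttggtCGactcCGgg
BMP6: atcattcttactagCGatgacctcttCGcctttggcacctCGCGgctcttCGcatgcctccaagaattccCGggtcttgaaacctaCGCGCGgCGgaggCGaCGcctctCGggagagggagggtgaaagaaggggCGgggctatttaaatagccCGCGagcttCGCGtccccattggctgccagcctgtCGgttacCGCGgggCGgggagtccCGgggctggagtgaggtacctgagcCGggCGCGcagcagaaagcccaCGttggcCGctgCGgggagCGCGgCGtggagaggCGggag
FST: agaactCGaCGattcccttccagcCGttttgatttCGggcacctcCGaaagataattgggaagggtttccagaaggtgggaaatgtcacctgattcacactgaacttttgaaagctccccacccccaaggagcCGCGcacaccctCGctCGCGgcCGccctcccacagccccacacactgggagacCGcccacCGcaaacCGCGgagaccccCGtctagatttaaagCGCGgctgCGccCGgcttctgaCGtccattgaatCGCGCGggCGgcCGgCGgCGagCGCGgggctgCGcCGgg

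The GDF3 sequence held 1 CG, and 98.1% of the 15315 protein-coding genes with a RefSeq sequence held at least as many (CG reads the same on both strands). BMP4 and FST held 32 each, a number reached by 25.7% of these genes, and BMP6 held 33, reached by 23.3%. Marks covered all 300 bases of GDF3 in 5 samples and 89.0% of them in 232P replicate 1. Marks covered no base of the FST sequence in any sample and none of the BMP4 sequence in 5 samples, with 8.67% in WT replicate 1. Of the BMP6 sequence 0, 23.7, 0, 23, 49.7 and 3.0% were covered in WT, 231K and 232P, replicate 1 before replicate 2 in each. The CG-poor start was thus the covered one and the 3 CG-rich starts were mostly bare, which describes 4 genes and no more. The RefSeq start of BMP4 lies 1775 bp inside the gene from the main start used for the other values, so that its sequence is not the bare stretch around the main start described further on. A RefSeq sequence was found for 29 of the 38 genes. No comparison of CG content over the whole group was made, since this is under 80%. Those without one were BMP2, BMP3, BMP7, GDF6, INHBE, LEFTY1, LEFTY2, CHRDL2 and NOG.

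GDF3 (chr12:7689784-7695775) had the widest median cover of all 38 genes, and the widest in each WT and 231K sample. Cover is the share of bases under a mark in the 10 kb centred on the main start. It was 82.5% and 87.2% in WT, 73.7% and 90.1% in 231K, and 50.8% and 57.4% in 232P. Both 232P samples were below the WT and 231K samples, while WT and 231K overlapped. In 232P, NOG and BMP4 were covered more widely than GDF3 in replicate 1, and BMP6 in replicate 2. The mark that crossed the start was 7018 and 9873 bp wide in WT, 3341 and 8764 bp in 231K, and 1019 and 2855 bp in 232P. Its fold enrichment was 5.18 and 7.15 in WT, 5.63 and 8.34 in 231K, and 4.47 and 5.14 in 232P. In median cover GDF3 ranked 341 of 19962 genes, from the widest.

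BMP4 (chr14:53949736-53958761), a ligand with broad roles in patterning of the embryo, had a cover of 73.6% and 65.4% in WT, 47.2% and 61.0% in 231K, and 51.7% and 55% in 232P. All 4 Tau-KO samples were below both WT samples, although the difference of 232P from WT, -16.2 percentage points (SE 15.2), turned to 19.9 when each sample was scaled to the same mean cover. At its starts the fold enrichment reached 9.53 and 9.25 in WT, 7.13 and 8.61 in 231K, and 6.23 and 6.80 in 232P, again lower in all 4 Tau-KO samples. This order was found in 10.5% of the 3830 genes tested for cover and in 4.69% of the 2281 tested for fold enrichment. Around the main start of BMP4 a stretch of 653 and 1500 bp was free of marks in WT, 1503 and 632 bp in 231K, and 1122 and 4203 bp in 232P.

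BMP6 (chr6:7726099-7881728), known as a regulator of iron balance, had a cover of 57.7% and 61.8% in WT, 44.4% and 71.1% in 231K, and 43.8% and 60.4% in 232P. The groups overlapped. Its highest fold enrichment at the start, 4.76 and 5.40 in WT, was 6.56 and 7.50 in 231K and 6.43 and 7.06 in 232P. Here all 4 Tau-KO samples were above both WT samples, the opposite of BMP4, and 2.37% of the genes tested had this order. In 231K replicate 1, however, only 158 bases of the mark lay within 1 kb of the start. When a mark had to overlap by 200 bp, BMP6 was no longer marked in all 6 samples. The bare stretch at the start of BMP6 was 1944 to 3233 bp long in the 6 samples and reached further into the gene than upstream in all of them.

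BMP3 (chr4:81030708-81057627), an atypical member of the BMP class that antagonises other BMPs, had a cover of 48.2% and 63.1% in WT, 57.5% and 64.3% in 231K, and 10.7% and 49.4% in 232P. The low value was that of 232P replicate 1, and the other 5 samples lay between 48.2% and 64.3%. A mark at the start was present in all 6 samples, with a fold enrichment of 5.16 and 7.33 in WT, 7.79 and 5.54 in 231K, and 4.97 and 4.86 in 232P. The start base itself was under a mark in 2 samples, WT replicate 1 and 231K replicate 1.

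FST (chr5:53480626-53487134) encodes follistatin, which binds activins. Its cover was 45.5% and 56.2% in WT, 34.2% and 49.9% in 231K, and 31.0% and 49.2% in 232P. In each genotype replicate 1 was the lower one and the genotypes overlapped. Within each replicate number, however, both Tau-KO lines were below WT, as they were for GDF6, BMP4 and NOG, an order found in 27% of the genes tested for cover. With the replicate number as a block FST differed from WT by -8.80 percentage points (SE 9.51) in 231K and by -10.8 (SE 9.51) in 232P, with adjusted p-values in limma of 0.999 and 0.359. Without 232P replicate 1 the difference in 232P was -8.28 with the block and -1.68 without it, and scaling all samples to the same mean cover turned it to 13.2. For GDF6 that scaling turned the difference in 232P from -6.29 to 2.68. A mark began 213 to 458 bp after the start in all 6 samples, and it held no exon base in 5 of them and 35 in 232P replicate 1. The fold enrichment was 5.18 and 7.80 in WT, 5.05 and 9.17 in 231K, and 5.47 and 5.83 in 232P. CHRDL2 (chr11:74696429-74731426), a chordin-like antagonist, had less cover, with 23.8% and 23.6% in WT, 15.9% and 33.9% in 231K, and 10.5% and 23.9% in 232P. The highest fold enrichment at its starts was 4.42 and 7.57 in WT, 4.99 and 6.67 in 231K, and 4.97 and 3.26 in 232P, and the genotypes overlapped.

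NOG (chr17:56593699-56595611) encodes noggin, which binds BMPs, in a single exon. It was among the most widely covered of the 38 genes and yet had a mark at its start in 1 sample only. The cover of the 10 kb was 64.1% and 68.6% in WT, 60.9% and 62.8% in 231K, and 64.0% and 56.8% in 232P. All 6 values lay within a narrow range. Within 1 kb of the start, however, the cover was 15.8% in WT replicate 2 and 0 in the other 5 samples, while the outer 8 kb were covered to 80.1% and 81.8% in WT, 76.1% and 78.6% in 231K, and 80.0% and 71.0% in 232P. The mark upstream of NOG ended 1133 to 1231 bp before the start in 5 samples and 683 bp before it in WT replicate 2. That mark was 19253 bp wide with a fold enrichment of 10.8 at its summit. This was the highest among marks reaching within 1 kb of any start of the 38 genes, but only 317 of its bases did so. The threshold of 1 kb thus decided that NOG counted as marked in WT replicate 2 and as unmarked in the others. The mark behind the gene, which began 4199 bp after the start in 231K replicate 2, was 40873 bp wide there.

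**Figure D2:**
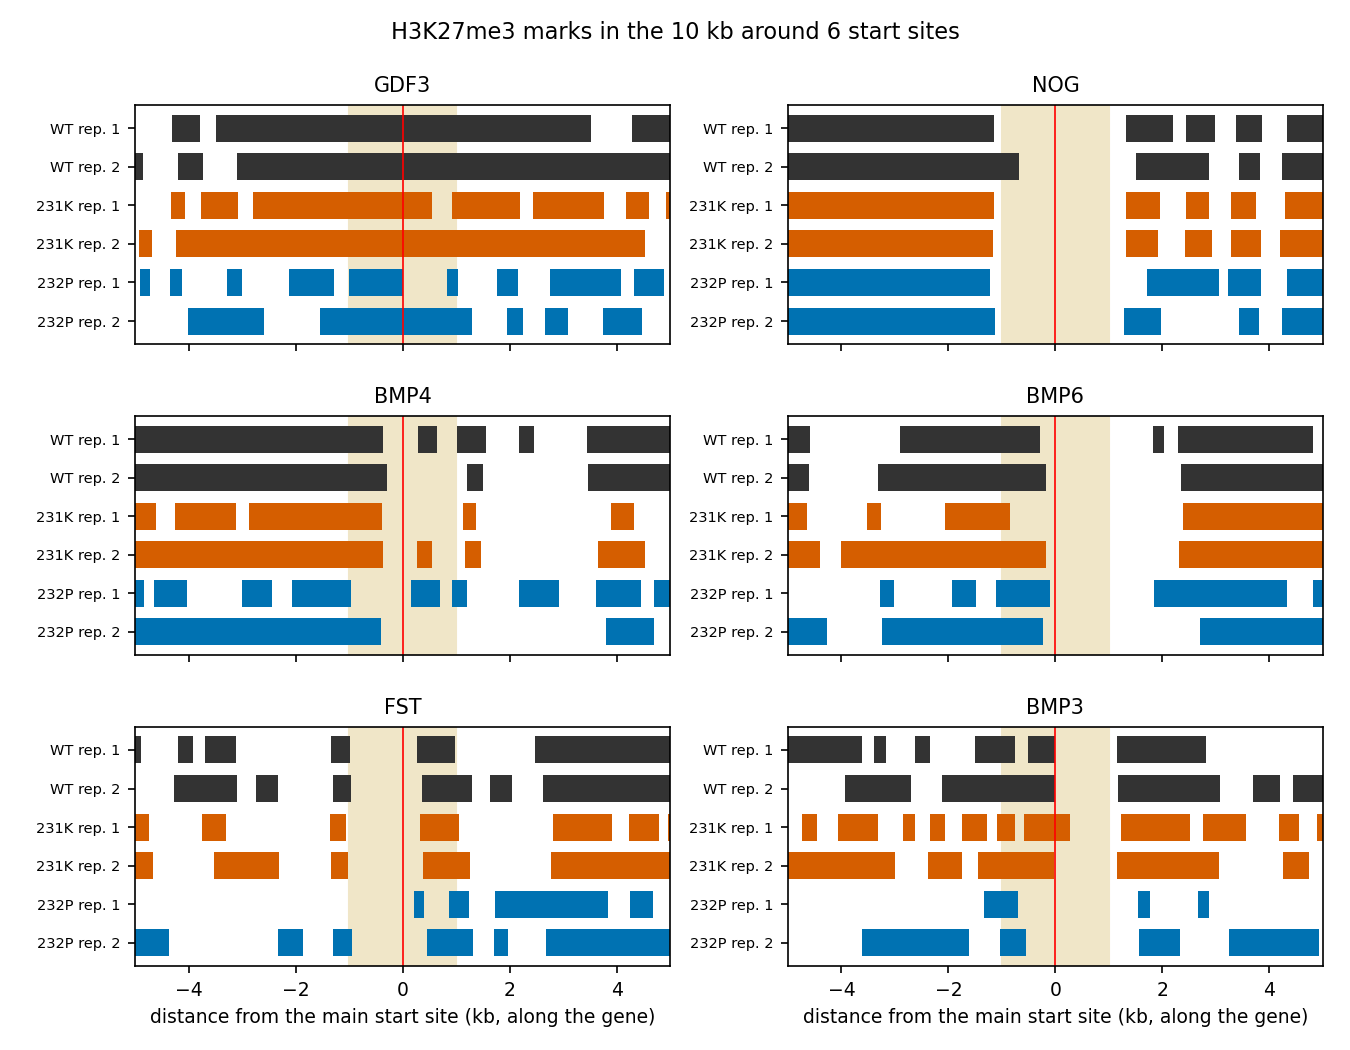
Position of the marks (bars) in the 10 kb around the main start site (red line) of 6 genes, in kb along the direction of the gene, with 1 row for each ChIP sample (WT black, 231K orange, 232P blue) and the 1 kb on each side of the start shaded. Marks run across the start of GDF3, while the starts of NOG, BMP4, BMP6 and FST lie in a bare stretch in all 6 samples.

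The bare starts were set beside those of other genes. In 1440 protein-coding genes the outer 8 kb of the window had a median cover of at least 50%, among them GDF3, NOG, BMP4, BMP6, BMP3 and FST. The start base was bare in all 6 samples for 4 of these 6 genes, all but GDF3 and BMP3, and for 40.9% of the 1440. The inner 2 kb had a median cover under 10% in 100 of the 1440 genes, or 6.94%, and NOG was one of them with a median of 0. The bare stretch had a median length of 2471 bp at NOG, 2510 bp at BMP6, 1386 bp at FST and 1311 bp at BMP4. At FST it was 6827 bp long in 232P replicate 1. Over the 589 genes with a bare start base the median was 1442 bp, with quartiles of 1037 and 1985 bp. NOG and BMP6 thus lay above the upper quartile and BMP4 and FST between the quartiles. These limits of 50% and 10% were chosen after the values of NOG were seen.

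A mark in both WT samples and in neither sample of a Tau-KO line was found for 1 of the 38 genes, NODAL, which encodes the ligand that specifies mesoderm and the left side of the body. It was missing in 231K, beside 0.416% of all genes that lost a mark there, and in 232P, beside 1.16%. In WT replicate 1 the mark of NODAL was 197 bp wide and lay 502 to 699 bp after the main start, outside its exons. In WT replicate 2 it was 268 bp wide and lay upstream, from -1018 to -750 bp of the start. The 2 WT marks therefore did not overlap. They were among the weakest at any start of the 38 genes, with a fold enrichment of 2.78 and 2.94 and a -log10 q-value of 1.46 and 1.81. In the Tau-KO samples no base of the 10 kb was covered, and in WT it was 1.97% and 2.68%. No gene gained a mark in both samples of a Tau-KO line over WT, beside 0.165% of all genes in 231K and 0.0651% in 232P. The loss of NODAL was found in neither line among peaks with a -log10 q-value of 5 or more, when a mark had to overlap by 200 bp, or among equal numbers of the strongest peaks. Other genes met the definition of a loss under these settings, BMP3 in 232P with the first and BMP5 in 231K with the second.

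A further 8 genes, NOG among them, had a mark at the start in 1 to 5 samples without such a pattern. BMP5 was marked in both WT samples, in 231K replicate 2 and in 232P replicate 2, with a fold enrichment of 2.78, 5.04, 4.31 and 2.36. GREM1, which encodes gremlin, was marked in both 231K samples, WT replicate 2 and 232P replicate 1, at 2.87, 3.89, 4.62 and 3.98. GDF6, GDF10 and BMP7 were each marked in 2 samples of different genotypes. TGFB1 and CHRD, which encodes chordin, were marked in 1 sample, 232P replicate 1, at 4.47 and 3.84, and both rest on that list alone. Among genes unmarked at the start, GDF7 and BMP2 had marks close by, the nearest of GDF7 at 1618 to 2294 bp and that of BMP2 at 1092 to 1619 bp in the 5 samples other than 232P replicate 1.

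Cover was compared between genotypes with limma over the 3830 genes with a mean of at least 5%, and 12 of the 38 genes passed this filter. With genotype as the only term, none of the 12 differed between 231K and WT, between 232P and WT, or between the lines at an adjusted p under 0.05. Neither did any other gene (0.0% in each direction). With the replicate number as a block, 669 genes passed between 232P and WT and 542 between the lines, with BMP3 among the latter. At an unadjusted p under 0.05 there were, without the block, 30 genes between 231K and WT, 428 between 232P and WT and 340 between the lines. The difference of 231K from WT had a median of -0.925 percentage points in the 12 genes and of -1.17 in all genes tested. Both medians turned with 1 sample, to 5.34 and 5.36 without 231K replicate 1, and were -6.65 and -7.55 without 231K replicate 2. Without WT replicate 1 they were -5.22 and -4.79, and without WT replicate 2 they were 0.585 and 2.69. On simulated data with independent normal noise, this comparison found 70.5% of genes changed by 40 percentage points and 15.5% of those changed by 20. Those data held no shifts of whole samples, and their values could leave the possible range of cover. They therefore do not give the power in the real samples. The difference of 232P from WT had a median of -7.34 in the 12 genes, all of which were below 0, and of -15.6 in all genes, of which 95.2% were below 0. The median of the 12 genes was thus nearer to 0 than that of all genes. Without 232P replicate 1 the medians were -5.45 and -7.63, with 10 of the 12 and 75.9% of all genes below 0. BMP6 and CHRDL2 then turned from -7.64 and -6.57 to 0.70 and 0.14, but with the replicate number as a block they were -7.0 and -4.31. With that block all 12 and 89.2% of all genes were below 0, with medians of -10.7 and -12.8. Without that sample and without the block 177 genes had an unadjusted p under 0.05. Without WT replicate 1 the medians were -11.1 and -19.8, with all 12 and 95.2% of all genes below 0. Without WT replicate 2 they were -6.47 and -11.2, with 10 of the 12 and 85.5% of all genes below 0. Without 232P replicate 2 they were -14.6 and -22.8. In that case 443 genes were lower in 232P than in WT and 458 were higher in 231K than in 232P, with none of the 12 among them. After each sample was scaled to the same mean cover, which by its construction sets the overall level alike, 5 of the 12 and 55.9% of all genes were below 0. With the lists thinned to equal estimated depth, all 12 and 91.9% of all genes were below 0.

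**Figure D3:**
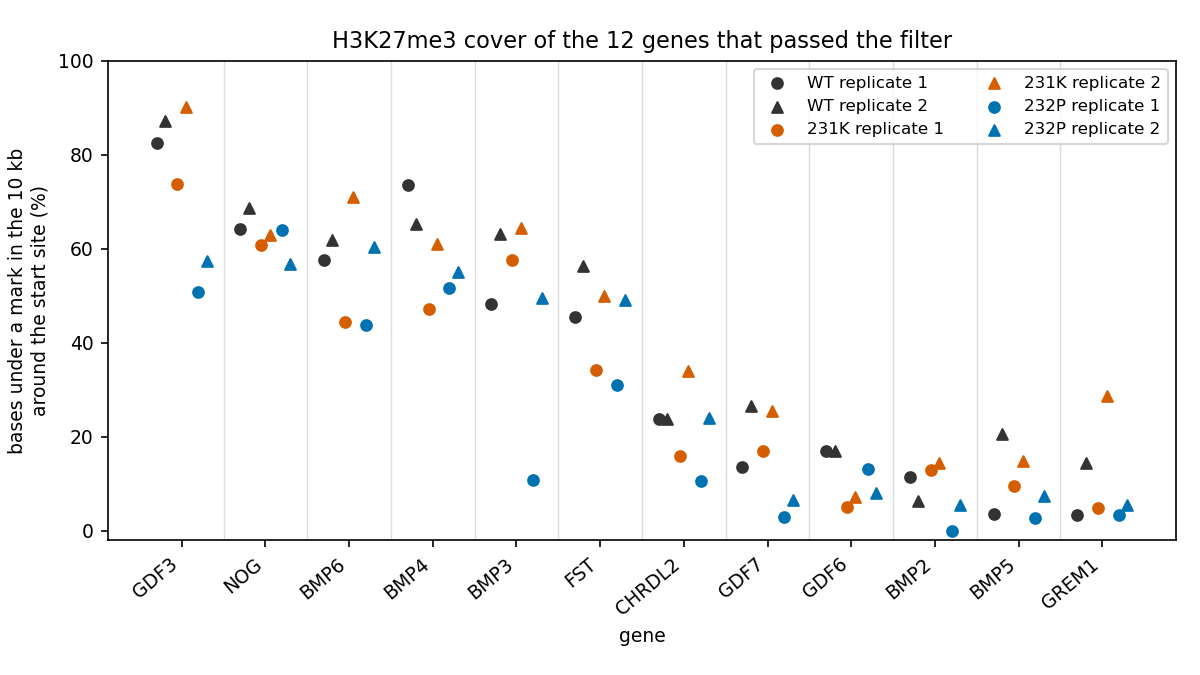
Share of the 10 kb around the main start under a mark (vertical axis, %) for the 12 genes that passed the filter, with 1 point for each sample (circles replicate 1, triangles replicate 2, WT black, 231K orange, 232P blue). GDF3 is highest in the WT and 231K samples, with its 232P points below them, and in BMP3 the point of 232P replicate 1 lies at 10.7%.

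GDF3 had the largest difference of the 12 genes between 232P and WT, at -30.8 percentage points (SE 14.0, 95% confidence interval -61.0 to -0.539). Its unadjusted p was 0.0466 and its adjusted p in limma was 0.414. With the replicate number as a block, which pairs the samples here, the adjusted p of GDF3 was 0.0501. When each sample was scaled to the same mean cover, the difference of GDF3 turned to 7.40. BMP3 differed by -25.6 (SE 17.0) with an adjusted p of 0.435, and without 232P replicate 1 by -6.21, or -11.6 with the block. GDF7 differed by -15.3 (SE 8.26) with an adjusted p of 0.423, and by -8.85 without WT replicate 2. The cover of GDF7, a ligand of the dorsal spinal cord, was 13.6% and 26.4% in WT, 17.0% and 25.4% in 231K, and 2.90% and 6.56% in 232P, below all other samples in both 232P samples. Both 232P samples were below both WT samples in 6 of the 12 genes, GDF3, GDF7, GDF6, BMP4, NOG and BMP2, beside 53.3% of all genes tested. In BMP2 both 231K samples were in addition above both WT samples, an order found in 2.98% of all genes tested.

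Between 231K and WT no difference among the 12 genes had a 95% confidence interval that left out 0. NOG differed by -4.49 percentage points (SE 14.7, 95% confidence interval -36.2 to 27.2) and GDF6 by -10.9 (SE 6.42, -24.7 to 3.0), with an adjusted p of 1.00 each in limma. GDF6, a ligand of joints and of the eye, had a cover of 16.9% and 16.9% in WT, 4.98% and 7.11% in 231K, and 13.2% and 8.05% in 232P. Both 231K samples were below both WT samples for GDF6, BMP4 and NOG, beside 13.6% of all genes tested. NOG differed between 232P and WT by -5.95 (SE 14.7, -37.6 to 25.7), but by 36.4 after scaling to equal mean cover. Leaving out 1 sample at a time gave -6.74 to -2.24 for NOG in 231K, both ends from leaving out a WT sample, and -9.54 without 232P replicate 1 to -2.36 without 232P replicate 2.

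**Figure D4:**
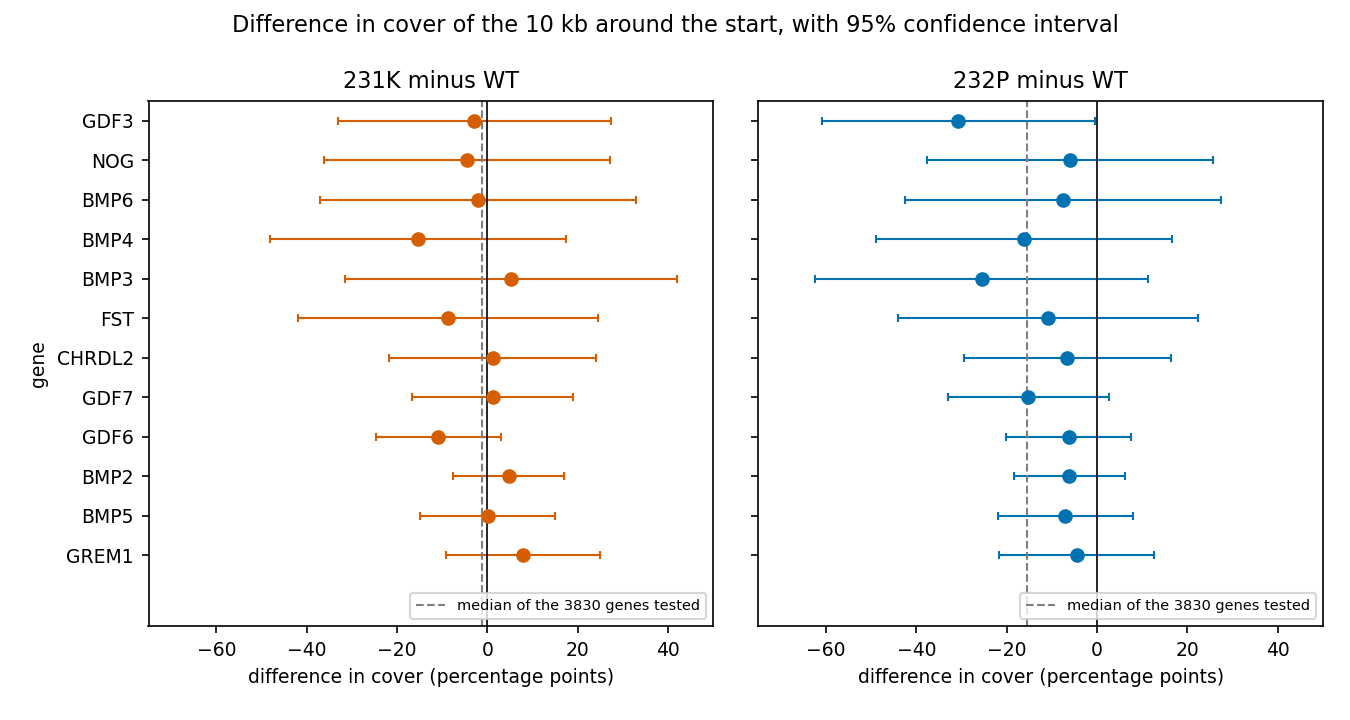
Difference in cover of the 10 kb around the start between each Tau-KO line and WT (horizontal axis, percentage points) for 12 genes, with the 95% confidence interval of limma (2 samples in each group). The dashed line is the median of the 3830 genes tested, at -1.17 for 231K and -15.6 for 232P, and of the intervals shown only that of GDF3 in 232P excludes 0, before adjustment.

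With the replicate number as a block, 1 gene differed between 231K and WT (0.0261%), and 669 genes were lower in 232P than in WT (17.5%) and none of the 12 was among them. The block gave 542 genes that were higher in 231K than in 232P (14.2%), and 1 of the 12, BMP3, was among these. BMP3 was 30.8 percentage points higher in 231K (SE 10.4) with an adjusted p of 0.0475 with the block and 0.462 without it. When the cover was also scaled to the same mean, no gene passed in any of the 3 comparisons, and without 232P replicate 1 the difference of BMP3 was 16.9 with the block (adjusted p of 0.336 in limma) and 11.5 without it. GDF3 moved the other way. Without 232P replicate 1 and with the block, GDF3 differed by -32.7 percentage points between 232P and WT (SE 8.57, adjusted p of 0.0140 in limma) and was 29.8 higher in 231K than in 232P (adjusted p of 0.0327). It was then 1 of 404 genes lower in 232P than in WT and 1 of 243 higher in 231K than in 232P. The spread in that fit comes from the WT and 231K samples, and the lone 232P sample is assumed to vary like them.

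The fold enrichment at the start was compared over the 2281 genes with a mark there in all 6 samples, after each sample was set to the same median. None of the 6 genes BMP3, BMP4, BMP6, GDF3, FST and CHRDL2 differed in limma, and neither did any other gene, with 75 genes in 231K and 90 in 232P at an unadjusted p under 0.05. BMP6 was higher in 232P than in WT by 0.62 on the log2 scale (SE 0.23, 95% confidence interval 0.14 to 1.11), with an unadjusted p of 0.0155 and an adjusted p of 0.997. In 231K it was higher by 0.37 (SE 0.23). Without the setting to the same median BMP6 was higher by 0.41 in 232P (unadjusted p of 0.161) and by 0.47 in 231K, and the unadjusted p in 232P was 0.0572 without 232P replicate 2 and 0.0515 without WT replicate 2. BMP4 differed by -0.36 (SE 0.20) in 231K and by -0.31 (SE 0.20) in 232P, with adjusted p-values of 1.00 and 0.997. Without WT replicate 1 these differences of BMP4 were -0.24 and -0.19, and without the setting to the same median they were -0.26 and -0.53.

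Marks elsewhere in the gene, wholly outside the 1 kb around every start, were found in both WT samples for 8 of the 38 genes, beside 16.0% of all genes. In 231K there were 8, beside 15.6%, and in 232P 7, beside 13.4%. The 5 genes with such marks in all 6 samples, beside 12.0%, were BMP3, BMP5, BMP6, GDF6 and NOG. Most of BMP6 was under such marks in every sample but 232P replicate 1. They covered 68.7% and 79.9% of the gene in WT, 70.4% and 81.0% in 231K, and 34.4% and 72.2% in 232P. The number of these marks was 45 and 18 in WT, 51 and 14 in 231K, and 96 and 36 in 232P, so that replicate 1 had the more and the narrower marks in each genotype. The widest was 10319 and 27981 bp in WT, 8030 and 29613 bp in 231K, and 2480 and 19079 bp in 232P. BMP6 in 232P replicate 1 was thus covered least and by the most marks.

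BMP3 was covered over 28.9% and 51.0% of its length in WT, 40.1% and 58.6% in 231K, and 7.51% and 44.5% in 232P. In BMP5, which lies on the same chromosome as BMP6, these values were 5.43% and 9.56% in WT, 2.64% and 7.27% in 231K, and 0.479% and 6.96% in 232P. BMP5 and BMP6, of 121938 and 155630 bp, thus differed in the share of their length under marks in every sample. The mark within NOG began 1289 to 1702 bp after its start and held 211 to 624 bases of its exon. The class of BMP genes held 52 to 107 of the marks away from starts in each sample, and all other classes together held fewer.

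**Figure D5:**
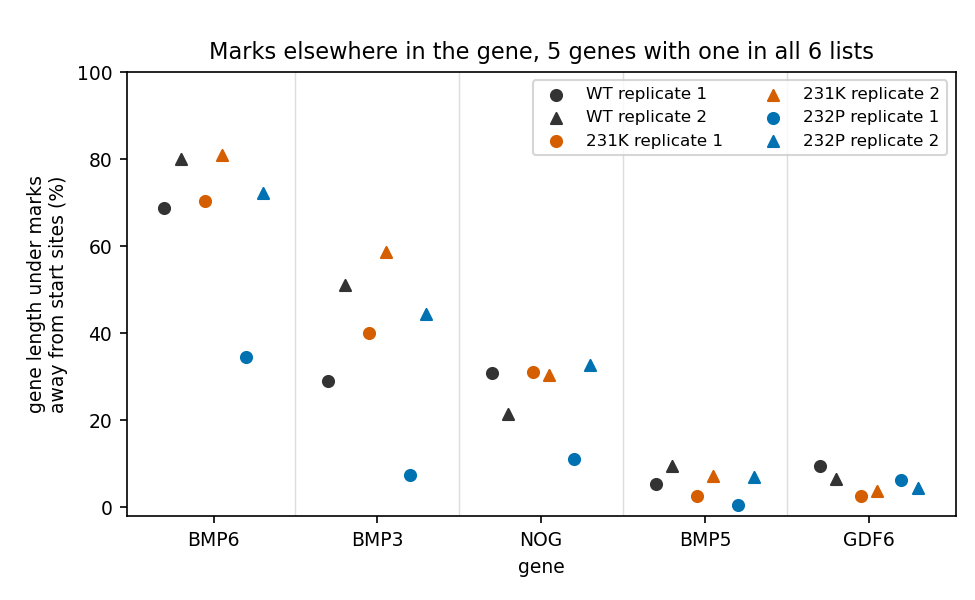
Share of the gene length under marks that lie away from every start site (vertical axis, %) for the 5 genes with such a mark in all 6 samples, with 1 point for each sample (circles replicate 1, triangles replicate 2, WT black, 231K orange, 232P blue). BMP6 lies between 34.4% and 81.0% and BMP5 below 10% in every sample.

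Taken by class, the mean cover of the 10 kb was highest in the antagonist and BMP genes in every sample. In the 6 antagonist genes it was 22.8% and 27.2% in WT, 19.3% and 29.2% in 231K, and 18.7% and 22.6% in 232P, and NOG, FST and CHRDL2 held most of it. In the 9 BMP genes it was 21.9% and 24.1% in WT, 19.0% and 25.1% in 231K, and 12.4% and 19.7% in 232P. In both classes the 232P samples were below the WT samples, but relative to the mean over all protein-coding genes they were above them. That mean was 7.74% and 9.36% in WT, 6.96% and 9.75% in 231K, while 232P had 3.69% and 6.91%. As multiples of that mean, the antagonist class stood at 2.94 and 2.90 in WT, 2.77 and 3.0 in 231K, and 5.07 and 3.27 in 232P, and the BMP class at 2.84 and 2.58, 2.74 and 2.57, and 3.36 and 2.86. The GDF class stood at 1.33 and 1.36 in WT, 1.25 and 1.25 in 231K, and 1.65 and 0.947 in 232P, so that the 232P samples lay on either side of WT. The GDF genes had 10.3% and 12.7% in WT, 8.70% and 12.2% in 231K, and 6.08% and 6.54% in 232P, nearly all of it from GDF3, GDF7 and GDF6. In the inhibin, TGF-beta and nodal classes the mean was at most 1.94% in any sample. INHBB, which encodes an activin subunit, accounted for all of it in its class, with marks in the gene in both 231K samples, in WT replicate 1 and in 232P replicate 2.

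Of the 12 genes tested, replicate 2 had the wider cover in 9 genes in WT, in 12 in 231K and in 10 in 232P, beside 73.9%, 89.8% and 80.7% of all genes tested. Replicate 1 was the deeper list with the narrower marks in every genotype, and the part of this in the values of a gene was not tested.

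The wider pathway was followed in 50 further genes for receptors, SMAD proteins, targets, latency proteins and other antagonists. A mark at the start was found in both WT samples for 8, in both 231K samples for 8 and in both 232P samples for 7, and 39 had none in any sample, beside 16.5, 15.7, 12.2 and 78.0% of all protein-coding genes. As shares of the 50 genes these were 16, 16, 14 and 78%, near those of all genes. None of the 50 lost or gained a mark in either line. All 11 genes for SMAD proteins and their nuclear repressors were free of marks at the start. Of 17 receptors and co-receptors 14 were, beside the 78.0% of all genes. The 7 genes marked in all 6 samples were TGFBR3, a co-receptor, the targets MSX1 and CCN2, and LTBP1, SOSTDC1, BMPER and CHRDL1, which bind ligands or hold them latent. CCN2, a target of TGF-beta, had the widest median cover. Its values were 78.2% and 83.6% in WT, 70.6% and 84.1% in 231K, and 19.8% and 70.5% in 232P. TGFBR3 had 75.8% and 79.6% in WT, 49.6% and 80.0% in 231K, and 51.1% and 65.1% in 232P, and in both genes the 232P samples were below and the 231K samples overlapped the WT samples. Of the 50 genes 10 were tested for cover and none passed, while with the replicate block CCN2 was lower in 232P than in WT by 35.7 percentage points (SE 11.7, adjusted p of 0.0405 in limma). Without 232P replicate 1 the difference of CCN2 was -15.1 with the block (SE 8.63, adjusted p of 0.236) and -10.4 without it. With all samples, with the block and scaling to the same mean cover it was -13.0 with an adjusted p of 0.749.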

How the data were processed

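The 38 genes and all lists were chosen with earlier results of these data known. Per the study's methods, the authors trimmed reads, aligned them with BWA to hg38 and ran MACS (version 2) on every sample in its broadPeak setting, whereas the deposited lists have the narrowPeak format and hold more peaks than the study describes, so they may not be the lists it analysed. The q-value threshold and the use of input as control are not given in the sources used here, and the input of each sample (6 in all) was not used here. In the deposited lists the fold enrichment is the ratio (reads at the summit plus 1) over (local background plus 1). Of the summit, the deposited lists also give the p-value and the q-value as -log10, and a score, which equals the latter times 10. Read numbers are not in the lists, so no counting interval was given. The relative depth is an estimate, the lowest local background divided by the smallest width. A missing mark means that none passed the threshold at that depth.

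Genes were taken from GENCODE release 44. Cover and log2 fold enrichment were tested with limma 3.58.1 (R 4.3.3, two-sided, trend and robust options, Benjamini-Hochberg adjustment over all genes tested) on the 6 ChIP samples with genotype as the term. Deviations of same-numbered replicates correlated at 0.372, 0.474 and 0.381 over 3830 genes for the 3 pairs of genotypes. The numbers, which stand for the letters A and B in the sample titles, were therefore used as pairs in the fits with a block only. The titles do not say that same-lettered samples were handled together, and the correlation does not establish it. Genes with a start mark in all samples, with lost marks or past the threshold were given in full. The steps were tested on simulated data with 200 changed genes. With 2 samples against 2, an exact permutation test cannot go below 0.333. Alternatives were other thresholds, windows, scalings and filters, and leaving out each replicate.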

Additional observations from a re-analysis of the deposited data

Results flagged for a closer look

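BMP2 differed between the Tau-KO lines in direction. Its cover of the 10 kb around the start was 11.5% and 6.27% in WT, 12.8% and 14.4% in 231K, and 0 and 5.40% in 232P, so that both 231K samples were above and both 232P samples below both WT samples. This order was found in 2.98% of the 3830 genes tested. The difference between the lines was 10.9 percentage points (SE 5.72, 95% confidence interval -1.45 to 23.2) with an adjusted p of 0.462 in limma, so the test of the difference itself did not pass.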

How the results depend on the processing

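With peaks of a -log10 q-value of at least 5, start marks in both WT samples fell to 4 genes, beside 8.05% of all genes. In both 232P samples they fell to 2, beside 3.13%, and in all 6 samples to 1, beside 2.79%. The loss in 231K was 0, beside 0.271%. Marks elsewhere in the gene were then in 3, 3, 3 and 1 genes for WT, 231K, 232P and all 6 samples. Within 2.5 kb of a start, 14 genes were marked in WT and 12 in 231K, beside 19.7% and 18.9% of all genes. When the lists were limited to equally many strongest peaks, no mark was lost in 231K (0, beside 0.406% of all genes) or 232P (0, beside 0.666%). In 232P the loss was 2 genes at a q-value under 0.05 (beside 1.13% of all genes) and at equal estimated depth (beside 0.872%). It was 0 with an overlap of at least 200 bp (beside 1.25%). In 231K the gain was 1 gene with that overlap and with the main start only, beside 0.150% and 0.185% of all genes. Leaving out each replicate gave 6 to 11 genes marked in 232P, 1 to 3 lost in 231K and in 232P, 0 to 1 gained in 231K and 0 to 2 gained in 232P. It gave 0 to 443 genes called between 232P and WT and 0 to 458 between the lines, the highest without 232P replicate 2, where the lone sample is assumed to vary like the others. The replicate block gave 1 called gene between 231K and WT, 669 between 232P and WT and 542 between the lines, with BMP3 at 30.8. It changed no other call on the 38 genes. Scaled to equal mean cover, with or without the block, the difference of 232P from WT was 7.40 for GDF3, 36.4 for NOG and 19.9 for BMP4 in place of -30.8, -5.95 and -16.2. Without 232P replicate 1 and with the block, 1 gene was called between 231K and WT, 405 between 232P and WT and 244 between the lines, with GDF3 called in the last pair of comparisons at -32.7 and 29.8. That scaling combined with the block, and the block without 232P replicate 1, were chosen after seeing the data. The causes were not tested. Of 217 counts under alternatives, 184 stayed within 1.5 times the value given. Of 185 differences of single genes 177 kept their direction and their side of the threshold, but these cover selected genes and comparisons only. Not among them are the differences in cover of FST, GDF6, BMP6 and CHRDL2 between 232P and WT. Scaled to equal mean cover these turned above 0, to 13.2, 2.68, 23.9 and 2.44, while 5 of the 12 genes tested stayed below 0.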
